A study of Mus musculus with 8 samples.

Results

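Runs of neighbouring CHD4 sites that were called in control atria and in no TBX5 KO list were examined in whole mouse atria. Any peaks of the 4 deposited lists that shared at least 1 bp were joined into a site, and the autosomal sites called in both control lists were ordered along each chromosome. A run is a stretch of at least 5 such sites in a row, each called in neither TBX5 KO list (a control-only site) and each less than 100 kb from the next. Its members were chosen by these calls, so their number and place are a description and are not tested. There were 161 runs with 1035 member sites, which is 1.54% of the 67328 autosomal sites called in both control lists and 6.20% of the 16698 autosomal control-only sites. The merged lists held 121267 sites in all.

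The study mapped CHD4 by ChIP-seq in 2 libraries titled TBX5 KO and 2 titled control, from dissected, frozen left and right atria with the cell type given as mixed. All mice had both Tbx5 alleles floxed and were injected with AAV9 on postnatal day 2, the vector carrying Cre recombinase for the TBX5 KO atria and EGFP for the control atria. Both vectors used Nppa sequence, a gene active in atrial cardiomyocytes, so other cells of the atria are expected to keep Tbx5. The age at dissection, and whether a library is 1 animal or a pool, are not stated. The genotype and treatment labels contradict the titles, exchanging the groups, and the protocol text names CHD4 as the deleted gene. Every direction given here therefore rests on the titles, and no peak value can decide the matter. Peak calls are not expression, so they do not check the tissue label either. The lists held 61173 and 69557 peaks in the TBX5 KO libraries and 99924 and 91520 peaks in the control libraries, and they give no read totals. A shorter list misses more sites near the caller's threshold, so a site that was not called may still be bound. In whole atria, fewer cells of a type and less CHD4 per cell cannot be told apart.

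CHD4 is the ATP-dependent helicase of NuRD, a complex that moves nucleosomes and removes histone acetylation. TBX5 is a T-box transcription factor that is needed for heart formation and for the atrial gene programme and rhythm after birth. Genes that are highly expressed in one cell type often carry many binding sites along their bodies and flanks, and a run records that all sites of such a stretch were missed together.

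At 12 promoter windows a member site of a run overlapped the start region of a protein-coding gene (250 bases before to 50 after the start, RefSeq, build GRCm38.p6, the assembly behind mm10). These were the windows of Hecw2, Tmem163, Dusp27, Mypn, Rbfox1, Glp1r, Vegfa, Sfrp5, Gja5, Ank2, Bmp10 and Lmntd1. The windows of Rbfox1, Vegfa, Ank2 and Lmntd1 lay at an internal start, inside the gene and away from its outer 5' end. For Ank2 the gene spans chr3:126921607-127500347 on the minus strand, so its window does not cover the outermost start. The counts below include these internal windows. The 250 bases before the start are shown for 5 of them, chosen because they belong to genes of the heart muscle cell or, for Tmem163, to one of the longest runs. Capitals mark the T-box core AGGTGT or its reverse complement, which occurs in the Mypn sequence.
Bmp10 promoter, chr6:87428744-87428993, plus strand: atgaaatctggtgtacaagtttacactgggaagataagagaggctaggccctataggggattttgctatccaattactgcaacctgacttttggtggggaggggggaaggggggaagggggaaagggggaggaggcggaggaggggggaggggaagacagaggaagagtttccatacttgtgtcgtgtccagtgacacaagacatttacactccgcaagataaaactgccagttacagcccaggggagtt
Gja5 promoter, chr3:97032152-97032401, plus strand: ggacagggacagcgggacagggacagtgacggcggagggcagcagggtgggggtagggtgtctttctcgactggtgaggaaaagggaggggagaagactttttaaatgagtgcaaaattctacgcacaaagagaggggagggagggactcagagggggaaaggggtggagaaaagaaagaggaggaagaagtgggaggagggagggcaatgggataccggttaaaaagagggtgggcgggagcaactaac
Tmem163 promoter, chr1:127678022-127678271, minus strand: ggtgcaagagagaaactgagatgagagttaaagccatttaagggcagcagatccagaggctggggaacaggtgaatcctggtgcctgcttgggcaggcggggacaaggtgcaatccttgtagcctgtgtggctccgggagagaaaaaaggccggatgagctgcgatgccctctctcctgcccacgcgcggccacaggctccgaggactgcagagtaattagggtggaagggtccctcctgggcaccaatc
Mypn promoter, chr10:63203953-63204202, minus strand: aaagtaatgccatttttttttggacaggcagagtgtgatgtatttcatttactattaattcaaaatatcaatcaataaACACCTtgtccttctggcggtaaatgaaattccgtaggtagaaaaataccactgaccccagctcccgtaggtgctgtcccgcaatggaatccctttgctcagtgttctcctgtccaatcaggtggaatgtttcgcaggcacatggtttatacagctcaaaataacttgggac
Ank2 promoter, chr3:126998453-126998702, minus strand: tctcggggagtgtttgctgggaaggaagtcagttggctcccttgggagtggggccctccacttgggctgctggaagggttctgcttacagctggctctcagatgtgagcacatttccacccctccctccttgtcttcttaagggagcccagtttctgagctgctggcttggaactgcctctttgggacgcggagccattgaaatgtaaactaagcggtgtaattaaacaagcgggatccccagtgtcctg
Bmp10 encodes a BMP-type growth factor made in atrial muscle, Gja5 the gap junction protein connexin 40, Mypn the Z-disc protein myopalladin and Ank2 the membrane adaptor ankyrin-B. The site over the Bmp10 start had folds over its local background, as the authors' caller gave them, of 2.79 in control 1 and 2.84 in control 2. The Gja5 start had folds of 3.42 and 3.31 in control 1 and 2, and the Mypn start had 4.08 and 4.46. The Tmem163 start had 4.32 and 3.02, and the internal Ank2 start 3.49 and 3.10. None of these 5 sites was called in a TBX5 KO library. Of the 12 windows, searched over all 300 bases and both strands, 1 held AGGTGT, against 12.7% of 20085 promoter windows of autosomal protein-coding genes. The GATA letters AGATAA were in 2 of 12 (9.57% of all windows), the NKX letters AAGTG in 6 of 12 (45.0%) and the TEAD letters GGAATG in 4 of 12 (13.4%). The windows of the 12 had a median G+C content of 55%, against 62% for the 11165 windows that overlapped a site called in all 4 lists and 57% for all 20085.

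Few genes with runs had only control-only sites at their promoter window, which can lie at an internal start. Of 137 genes that had both a run site and a promoter window in the RefSeq table, 118 had a site in both control lists over the window. For 85.6% of these 118 genes such a site was called in all 4 lists, and for 12 genes (10.2%) the window held only control-only sites. Among other genes with at least 5 sites in both control lists the shares were 97.1% and 1.01% of 3257. Genes with a run site were chosen through control-only sites, and a site over the window can itself be a member. The rule thus favours this difference in advance, and the shares are a description. The member sites lay mostly inside genes. Within 1 kb of a gene end were 3.67% of members, inside genes 72.6% and outside genes 23.8%. For the 15663 control-only sites outside runs the shares were 5.77%, 62.1% and 32.1%, and for sites called in all 4 lists 30.4%, 42.0% and 27.6%.

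Long runs were more numerous than the status of single sites would give. Of the 161 runs, 84 had 5 sites, 48 had 6 or 7, 19 had 8 or 9, and 10 had 10 or more, up to 24. Across all autosomal sites called in both control lists, 24.8% were control-only. If status were dealt out at that share without regard to position, with the observed gaps, 40.4 runs of 5 or more would be expected. Weak control sites were control-only more often than strong ones, so each site was also given the share of its decile of control rank. Control rank is the mean percentile of a site's −log10 p in the control lists, with 100 as the strongest. That calculation gave 48.6 runs, and 52.4 when decile and place relative to genes were combined. The observed number was 3.98, 3.31 and 3.07 times these values. For runs of at least 8 sites 29 were observed and 1.14 expected from rank. Single control-only sites and pairs numbered 8701 and 2089, below the 9754 and 2248 expected from rank. These expected numbers are arithmetic on the observed shares and carry no test.

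**Figure D1:**
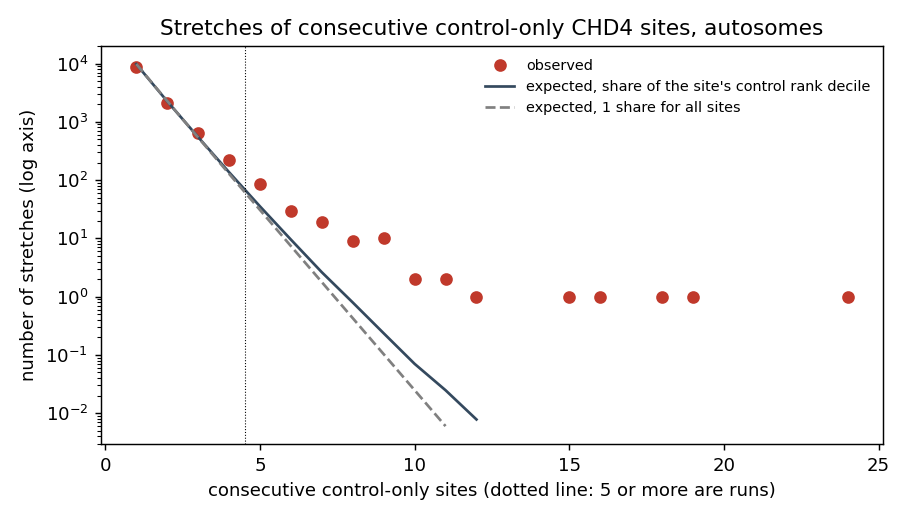
Number of stretches of consecutive control-only sites (vertical log axis) by the number of sites in the stretch, with the numbers expected if status did not depend on position. The observed points leave the lines from 4 sites on (219 observed, 136 expected from rank) and reach 24 sites, where the lines are far below 1.

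Next to a control-only site, 31.4% of sites were control-only (4892 of 15561, Wilson 95% interval 30.7% to 32.2%), against 22.2% next to a site called in at least 1 TBX5 KO library (10657 of 48026, 21.8% to 22.6%). These intervals cover counting error only. The share next to a control-only site was 30.7% for gaps under 1 kb, 33.8% for 1 to 3 kb, 31.4% for 3 to 10 kb, 29.5% for 10 to 30 kb and 32.8% for 30 to 100 kb. Over all neighbours the share was 24.3% under 1 kb and 26.0% at 30 to 100 kb. Within runs the median gap was 4.17 kb, with 23.6% of gaps under 1 kb, and among all neighbours under 100 kb apart it was 5.41 kb, with 19.2% under 1 kb. Runs spanned 5.96 to 337 kb, with a median of 50.9 kb, and 10.7 Mb in sum.

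At the threshold of the rule, the sites of the 84 runs of 5 had a median control rank of 39.05, and those of the 219 stretches of 4 had 41.0. Their spans had medians of 35.4 and 30.5 kb. The widest gap inside a run was 98.7 kb, and allowing gaps under 110 kb would add 3 runs.

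Members were weak to middling sites in control, but runs also held some of the strongest sites without a TBX5 KO peak. The median control rank was 40.4 for members, 36.4 for other control-only sites and 77.5 for sites called in all 4 lists. Median folds of members were 2.93 in control 1 and 2.84 in control 2, and those of other control-only sites 2.79 and 2.67. Of the 29 control-only sites in the highest control decile, 14 lay in runs. The member of highest rank (98.9) lay outside genes and within 10 kb of the kinase gene Sbk2 and of Ssc5d, at chr7:4951733-4954961, with folds of 14.8 in control 1 and 13.3 in control 2. The next (97.7) lay at chr10:57112654-57116233, 194 kb or more from the nearest protein-coding gene, Hsf2, with folds of 11.3 and 13.5. A member inside Fgf12, at chr16:28705964-28708023, had folds of 11.6 and 11.5. None of these 3 sites had a peak in either TBX5 KO library.

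Besides the members, the spans held 634 sites that were not called in both control lists. TBX5 KO 1 was called at 30 and TBX5 KO 2 at 33 of these, against 324 in control 1 and 283 in control 2. As shares these were 4.73% and 5.21% in TBX5 KO 1 and 2, and 51.1% and 44.6% in control 1 and 2. Over all 52719 autosomal sites not called in both control lists the shares were 16.7% and 24.5% in TBX5 KO 1 and 2, and 49.2% and 30.3% in control 1 and 2. The spans were chosen by missing TBX5 KO calls, so these shares are a description. In 124 of the 161 runs no TBX5 KO peak was called anywhere in the span. At the 322 ends of the runs, the next site was called in both TBX5 KO lists in 195 cases and in 1 of them in 98, and in 29 no further site lay within 100 kb. By the rule, a next site within 100 kb is called in at least 1 TBX5 KO list, or the run would go on. Over all autosomal sites in both control lists, 37678 were called in both TBX5 KO lists and 12952 in 1 of them.

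Ryr2, the gene of the channel that releases calcium from the sarcoplasmic reticulum, held the most member sites of any gene. Of its 77 sites called in both control lists (gene body plus 10 kb on each side), 67 were in 4 runs and 4 were called in all 4 lists. Over this region 4 peaks were called in TBX5 KO 1 and 9 in TBX5 KO 2, against 153 in control 1 and 148 in control 2. They covered 1.93 and 3.86 kb in TBX5 KO and 129 and 149 kb in control libraries. The runs held 24 sites over 92.3 kb, 19 over 45.7 kb, 16 over 337 kb and 8 over 22.1 kb. The longest lay at chr13:11907716-12000046, where median folds were 2.63 in control 1 and 2.62 in control 2. Of the 9 sites called in a TBX5 KO list, 5 were called in TBX5 KO 2 and not in TBX5 KO 1, and the control ranks of the 9 ranged from 37.6 to 88.0. The site over the gene's upper end, at chr13:12103046-12107691, was called in all 4 lists, with folds of 3.08 and 2.85 in TBX5 KO and 7.92 and 5.15 in control libraries. Ryr2 held 6.47% of all member sites. Many peaks stood close together here, with a median gap of 0.401 kb in the run of 19. With peaks under 3 kb apart joined, Ryr2 had 17 run sites, and in lists of equal length it had 19.

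**Figure D2:**
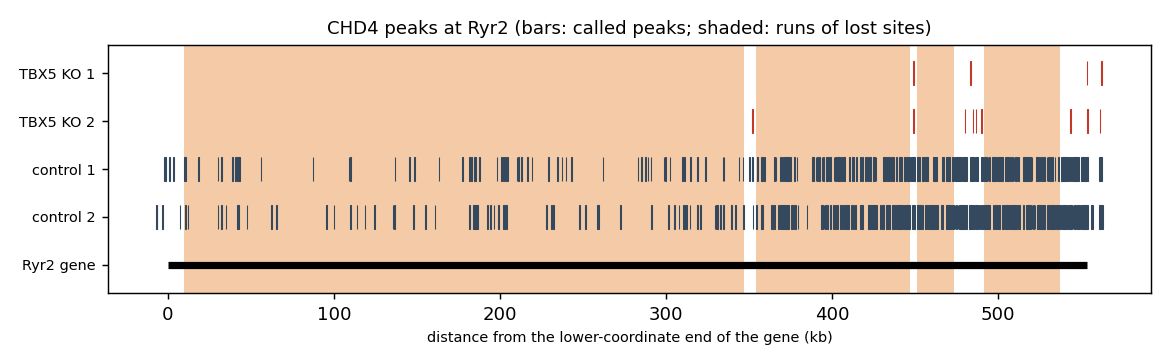
Called CHD4 peaks (bars) of each library along Ryr2, by distance in kb from the gene's lower-coordinate end, with runs shaded. The control rows hold 153 and 148 peaks, dense towards the right end, and the TBX5 KO rows 4 and 9.

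Genes of atrial conduction and excitability carried several of the other runs. Gja5 had 6 of 7 sites in a run of 7 sites over 33.9 kb, from its start region to beyond its far end. The strongest of them, at chr3:97061797-97063703 outside the gene, had folds of 8.81 and 9.93 in control 1 and 2, and the others were between 2.13 and 3.87. Kcnj3 and Kcnj5, which encode the subunits of the acetylcholine-gated potassium channel, had 9 of 11 and 5 of 12 sites in runs. At Kcnj3 1 peak was called in TBX5 KO 1 and 2 in TBX5 KO 2, against 22 in control 1 and 29 in control 2. At Gja5 1 peak was called in each TBX5 KO library, against 11 in control 1 and 10 in control 2. Chrm2, which encodes the muscarinic receptor that opens this channel, had 6 of 30. Fgf12, which encodes a modulator of sodium channels, had 10 of 16. Kcnd3, a gene of a transient outward potassium channel, had 5 of 19, and Cacna1c, which encodes the pore of the L-type calcium channel, 5 of 64. With peaks under 3 kb apart joined, Kcnj3 had 5 run sites and Gja5, Kcnj5, Chrm2, Kcnd3, Cacna1c and Fgf12 had 0. In lists of equal length Fgf12 had 5 run sites, and Gja5, Kcnj3, Kcnj5, Chrm2, Kcnd3 and Cacna1c had 0.

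Bmp10 lay within a run of 10 sites over 24.7 kb that also reached the flank of Arhgap25, and 7 of the 11 sites of Bmp10 were members. In the region 0 and 2 peaks were called in TBX5 KO 1 and 2, against 17 in each control library. The strongest of these 7, at chr6:87426892-87428195, had folds of 6.39 and 6.21 in control 1 and 2. Corin, which encodes the protease that activates pro-atrial natriuretic peptide, had 20 of 40 sites in 3 runs, the shortest of which held 5 sites in 5.96 kb. Pam, which encodes the peptide-amidating enzyme of atrial granules, had 10 of 61 sites in 2 runs. Bmp10, Corin and Pam had 0 run sites in lists of equal length, and also with peaks under 3 kb apart joined. Nppa, Nppb, Sln and Myl7 had 1 to 4 sites each in both control lists and cannot form a run on their own, and none of their sites was a member.

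**Figure D3:**
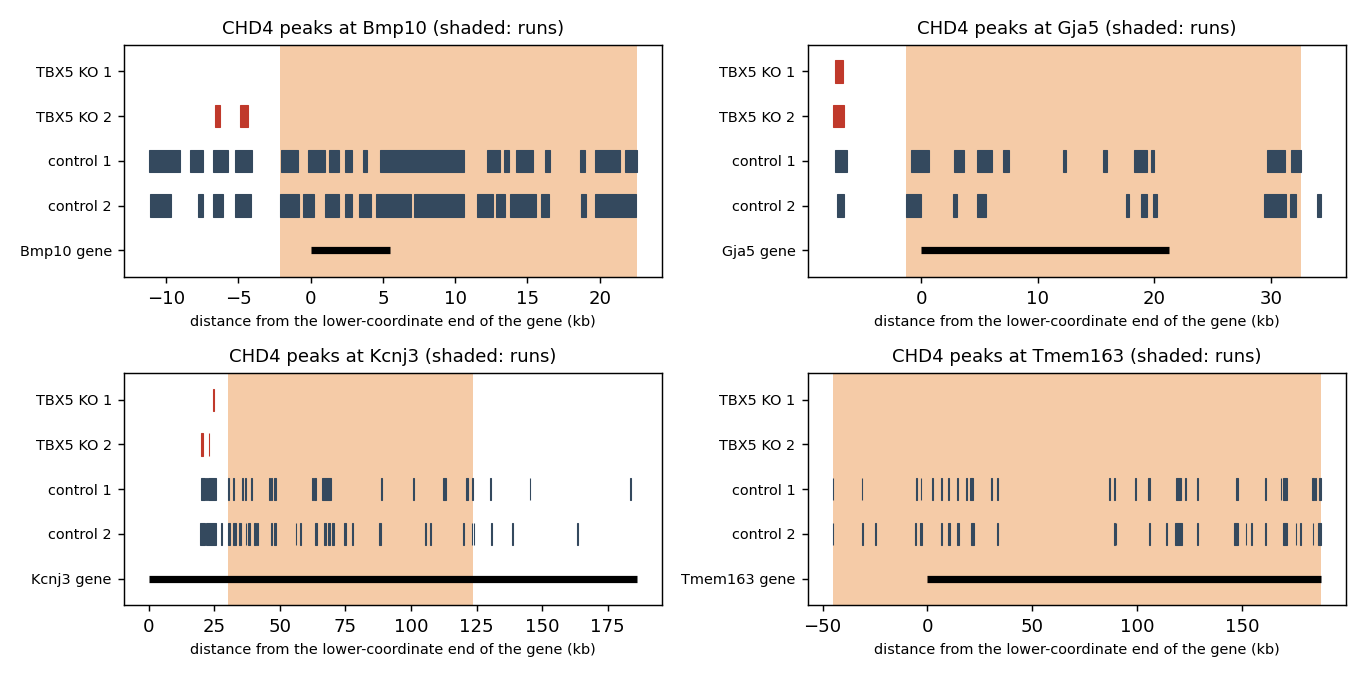
Called CHD4 peaks (bars) of each library at Bmp10, Gja5, Kcnj3 and Tmem163, by distance in kb from each gene's lower-coordinate end, with runs shaded. No TBX5 KO peak lies in a shaded span, and Tmem163 has none in the whole window.

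Among genes of the contractile apparatus, Myh7, the gene of beta myosin heavy chain, had 7 of 10 sites in a run of 15.1 kb that lay wholly inside the gene. The run ended short of the neighbouring alpha chain gene Myh6, and 3 of its sites count for Myh6 too through the 10 kb added to each gene. Ttn, which encodes the sarcomere spring titin, had 7 of 39 sites in a run, and Fhod3, an actin filament organiser gene, 8 of 39. Both had 0 run sites in lists of equal length and with peaks under 3 kb apart joined, and Ttn also with an overlap of 50% of the shorter peak, and Fhod3 with a −log10 q of at least 3. Myh7 had 6 run sites in lists of equal length, and 0 with peaks joined and with summits within 250 bp. Mypn, Ank2 and Ppargc1a, the gene of a coactivator of mitochondrial biogenesis, had a run each, of 5, 5 and 7 sites. In spans of runs lay the genes of miR-208b, which is encoded within Myh7, and of miR-490, which is encoded within Chrm2. They are shown with the seed (bases 2 to 8) in capitals, as RefSeq gives them, to name the small RNA genes that share these spans. Neither hairpin overlapped a member site, while those of miR-6352, at Epha4, and miR-7225, at Pde4dip, did. No miRNA was measured here.
mmu-miR-208b-3p: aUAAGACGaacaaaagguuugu
mmu-miR-490-3p: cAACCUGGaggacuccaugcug

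The other long runs lay at genes outside the usual atrial lists. Tmem163, which encodes a zinc-binding membrane protein, and the neighbouring Mgat5, which encodes a Golgi enzyme that branches N-glycans, shared a run of 18 sites over 233 kb. All 16 sites of Tmem163 in both control lists were members, and 0 peaks were called there in TBX5 KO 1 and 2, against 27 in control 1 and 25 in control 2. The strongest of them, at chr1:127608358-127611621, had folds of 9.09 and 8.43 in control 1 and 2. Camk1d, a calcium-dependent kinase gene, had 20 of 29 sites in 2 runs, and Pdzd2, a gene of a protein with PDZ domains, 15 of 55. Plekha7, which encodes an adherens junction protein, had 11 of 27. Nav3, a gene of a microtubule-associated protein, had 9 of 13 sites in the run with the highest mean control rank, 72.5. Tnni3k, which encodes a heart muscle kinase that binds troponin I, had 9 of 17, and Nrg2, a neuregulin gene, 9 of 14. Dpf3, a subunit gene of the BAF remodelling complex, had 10 of 25 in 2 runs. Runs of 9 sites also lay at Kctd1 with Taf4b, Uchl5, Ppp1r14c and Tuba3b. After Nav3, the gene-bearing runs of highest mean control rank lay at Kif6 (66.4), Zfyve27 with Sfrp5 (66.1), Sdk2 (63.6) and Lingo1 with Odf3l1 (62.9), and then at Kcnj5 (61.3), Rsrc1 with Mlf1 (61.2) and Nrg2 with Psd2 (61.0). With peaks under 3 kb apart joined, Tmem163 had 13 run sites, Nav3 and Camk1d 8 each, Pdzd2 6, and Plekha7, Tnni3k, Nrg2 and Dpf3 had 0. In lists of equal length Pdzd2 had 5, Plekha7 had 7 and Dpf3 had 0.

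**Figure D4:**
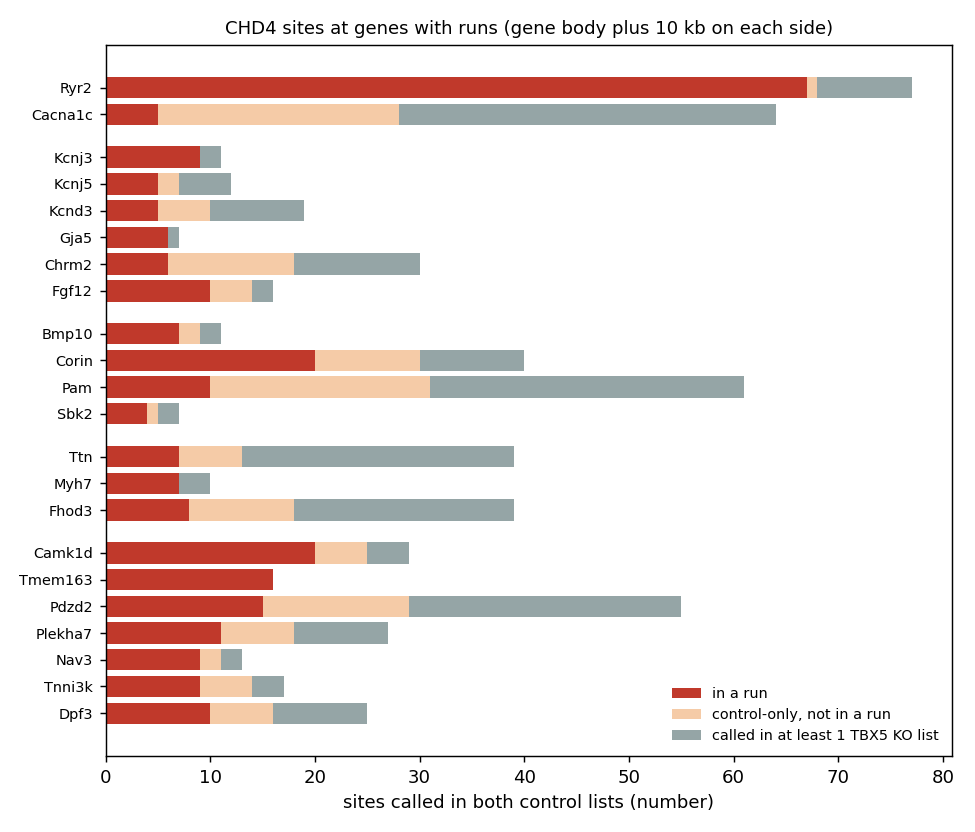
Number of CHD4 sites called in both control lists at each gene, split into members of a run, other control-only sites and sites called in at least 1 TBX5 KO list. Tmem163 has members only, and Ryr2 has 67 of 77, while Cacna1c, Pam, Ttn and Fhod3 keep many sites.

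In all, 170 autosomal protein-coding genes held a member site, and 138 of the 161 runs lay at a gene. A run needs 5 sites in a row, so genes with many sites have more room for one. Of 4688 genes with at least 5 sites, 132 (2.82%) had a member. The share was 1.25% of genes with 5 to 9 sites, 4.82% with 10 to 19, 7.87% with 20 to 39 and 23.9% with 40 or more. Genes with members had a median length of 105 kb, against 43.2 kb for genes with at least 5 sites. Of the 170 genes, 144 also kept a site called in all 4 lists. The same count over other genes is not given here, so this does not set genes with members apart from others.

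By gene list, runs were at 9 of the 15 atrial cardiomyocyte genes with at least 5 sites, which were Fgf12, Pam, Kcnj3, Bmp10, Chrm2, Gja5, Kcnj5, Sbk2 and Sbk3. They held 57 of the list's 247 sites (23.1%), against 835 of 52788 sites (1.58%) at all genes. This share was not particular to atrial genes. It was 24.8% for ventricular, 21.7% for neuronal and glial, 18.6% for ion channel and 16.8% for calcium handling genes. For each remaining list it was between 0 and 7.86%. Some of these shares rest mostly on 1 gene. Ryr2 held 67 of the 72 calcium handling members, Corin 20 of the 27 ventricular ones and Rbfox3 all 5 neuronal and glial ones. At the shares of genes of like site number the atrial list would have 0.796 genes with a run. Ion channel and conduction genes had runs at 5 of 17, sarcomere genes at 5 genes, of which 4 were among the 22 with at least 5 sites, and calcium handling genes at 2 of 18. Ventricular genes had runs at 2 of 6 (Corin and Myh7), intercalated disc genes at 2 of 12 (Cdh2 and Ctnnb1) and oxidative metabolism genes at 2 of 12 (Ppargc1a and Fabp3). The shares of genes of like site number would give 0.564 ion channel, 0.825 sarcomere and 1.41 calcium handling genes. They would give 0.403 ventricular, 0.522 intercalated disc and 0.354 oxidative metabolism genes. The calcium handling count of 2 is thus near its expected number. Sbk2 and Sbk3 are neighbours and share sites, and Kcnj3, Kcnj5 and Gja5 are on the atrial and channel lists. The lists were chosen with earlier results of these data known, so these counts are a description. They also move with the calls: with lists of equal length, and also with peaks under 3 kb apart joined, 1 atrial gene had a run site.

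No cardiac transcription factor gene had a run site. Of 33 such genes, 25 had at least 5 sites, and together they held 540 sites, of which 114 were control-only and 0 were members. Their longest stretch was 4 control-only sites, at Nkx2-5, a homeobox factor gene, and 3 at Mef2a, Mef2c, Zfpm2, Nfia and Nfib. Tbx5 had a longest stretch of 2, with 10 of 21 sites called in all 4 lists. At Nfia, a nuclear factor I gene, 57 of 78 sites were called in all 4. At the share over all genes with at least 5 sites (2.82%) the list would have 0.704 genes with a run, and at the shares of genes of like site number 1.64, so 0 is near either number. The count was above 0 in 12 of 20 alternatives, up to 12 genes, and 1 in lists of equal length. NuRD genes (8 with at least 5 sites), beta-adrenergic and cyclic AMP genes (14), fibroblast genes (9), endothelial genes (11), smooth muscle and pericyte genes (6), housekeeping genes (7), macrophage genes (2), adipocyte genes (2) and skeletal muscle genes (2) had 0 members. At 2.82% these lists would have 0.0563 to 0.394 genes with a run each, so their counts of 0 are near the share over all genes. Neuronal and glial genes had 1 gene with a run, Rbfox3, and the list of long neural genes 1, Erbb4. At the shares of genes of like site number these lists would have 0.025 and 0.25. No epicardial gene had 5 sites.

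The 23 runs without a gene held up to 8 sites. The one of 8 lay at chr2:49349532-49433669, 17.1 kb from Epc2. One of 7 lay at chr1:76975191-77102838, 264 kb from Epha4, and its strongest site had folds of 8.93 and 9.23 in control 1 and 2. Another of 7, at chr2:48423664-48480143, lay 334 kb from Acvr2a. By chromosome, members were 3.09% of the sites on chromosome 13, 3.08% on chromosome 1 and 0.347% on chromosome 8. Without the sites of Ryr2 the share on chromosome 13 was 0.888%, while the 141 members on chromosome 1 lay in 22 runs.

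Whether runs predict the call in a library that did not define them was asked by building them without that library. From both control lists and TBX5 KO 1, 505 runs with 3175 sites were found. Of these sites 73.7% (Wilson 72.1% to 75.2%) were not called in TBX5 KO 2, against 64.7% (64.1% to 65.4%) of the sites lost from TBX5 KO 1 outside runs. The share over all sites lost from TBX5 KO 1 was 65.9%, and the control ranks of the run sites alone would give 64.9%. From both control lists and TBX5 KO 2, 297 runs with 1853 sites were found, of which 87.0% (85.4% to 88.4%) were not called in TBX5 KO 1. Outside runs it was 78.8% (78.2% to 79.4%), over all such sites 79.5%, and from rank alone 78.7%. In both cases the share was higher in runs in each of the 10 deciles of control rank. The highest decile rests on few run sites, of which 15 of 20 were not called in TBX5 KO 2 and 14 of 15 not in TBX5 KO 1. All sites of a run were missing from the library left out in 102 of the 505 and 133 of the 297 runs. Sites are not replicates, and these intervals describe the libraries.

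The same question can be put to the control libraries. For runs built from control 1 and both TBX5 KO lists, 50.6% of sites were called in control 2, against 44.1% outside runs, 45.0% over all and 47.2% from rank. For runs built from control 2, 59.3% were called in control 1, against 55.3% outside, 55.8% over all and 58.6% from rank.

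Sites near runs that kept their call also stood lower in the TBX5 KO libraries. Within each library the 37678 autosomal sites called in all 4 lists were ranked by fold, which gives ranks of equal length. At the 906 of them within 100 kb of a run, the median percentile was 43.9 in TBX5 KO 1 and 46.3 in TBX5 KO 2, against 56.6 in control 1 and 57.8 in control 2. The libraries of the groups do not overlap. The mean was 45.1 ± 1.65 in TBX5 KO and 57.2 ± 0.811 in control libraries (SD, n = 2 each), a difference of −12.1, larger than the spread between replicates. Leaving 1 library out of the runs, the sites and the difference gave −5.84 without control 2 and −6.98 without TBX5 KO 2. It gave −7.65 without control 1 and −8.33 without TBX5 KO 1. These values use sites called in all remaining lists and only libraries that defined the runs, so none measures the library left out. By the exact permutation test (two-sided) over libraries p was 0.3333, the smallest that 2 libraries against 2 allow, so the design cannot reach 0.05. The runs were defined by calls in these same libraries and stayed fixed under the permutation, which favours the true split in advance. The difference and its p are therefore a description and no independent support. The labels do not say whether libraries come from separate animals, so the spread between them may be technical. At 31470 sites near another control-only site but not near a run, the means were 49.4 in TBX5 KO and 50.1 in control, and at 5302 sites near neither they were 54.4 and 48.7. Against retained sites of like control percentile, the sites near runs stood 7.87 and 6.56 points lower in TBX5 KO 1 and 2, and 0.714 points lower and 0.681 points higher in control 1 and 2. The match was made on the mean percentile of these control libraries, so the control differences are small by construction and are no result. The TBX5 KO values were not matched, but missing calls in these same libraries chose the runs. They are therefore a description too and were not tested. Inside genes the difference near runs was −13.2 and outside genes −8.70. At the 218 sites within 1 kb of a gene end it was −0.243, with 79.9 and 80.2 in TBX5 KO and 82.7 and 77.8 in control libraries, which overlap.

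**Figure D5:**
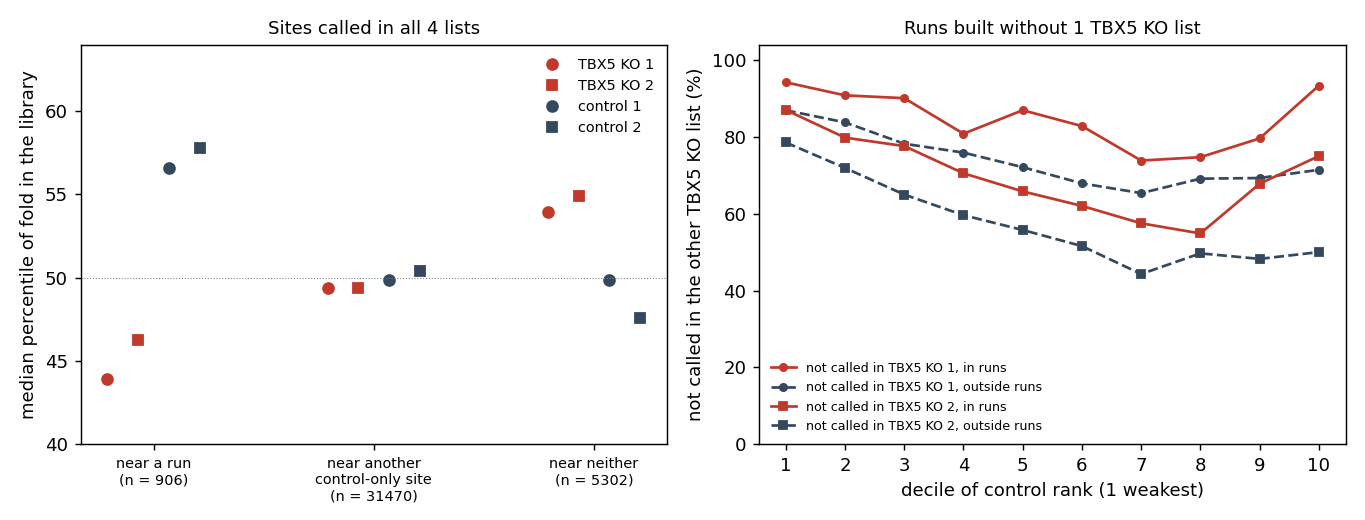
Left, median percentile of fold in each library at sites called in all 4 lists, by distance to runs (within 100 kb): near runs the TBX5 KO libraries lie at 43.9 and 46.3 and the control libraries at 56.6 and 57.8. Right, percent of sites lost from 1 TBX5 KO list that were not called in the other, by decile of control rank, higher in runs than outside in each decile.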

How the data were processed

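The peak lists of 4 CHD4 ChIP-seq libraries were used. Per the design text, each was made from ChIP and input reads, and the 4 inputs have no list of their own here. MACS2, DiffBind and build mm10 are named in the submitters' processing notes, with no version. The aligner is not given in the sources used here, nor are filters. Each deposited list belongs to 1 library and was not pooled. Per the authors' lists, a peak has a fold (ratio to its local background), a −log10 p, a −log10 q, a deposited score and a summit. The lowest deposited −log10 q was 1.30 to 1.31, so the lists end at a q of 0.05. Read depth is unknown.

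Groups came from the titles. Genes were RefSeq protein-coding genes (21887, GRCm38.p6), taken with 10 kb on each side. Expected run numbers were computed in closed form from the shares and gaps, after tests on simulated data. Because no genome sequence was used, member sites are shown only where a RefSeq promoter window covers them. The members, gene lists and motif letters were chosen with earlier results of these data known. Named genes were those of the 20 longest runs and the 10 of highest mean control rank, the list members with most run sites, and Ryr2, Tbx5, Chd4, Nppa, Nppb, Myl7, Bmp10, Gja5, Pam, Fgf12, Kcnj3, Sln and Cacna1c. Mypn, Ank2, Mef2a, Mef2c, Zfpm2, Nfia, Nfib, Nkx2-5, Dpf3 and the genes beside runs without a gene were added after their values were seen. Some genes that these choices take are not reported here. Replicate numbers are not stated to pair libraries. Python 3.11.15, pandas 2.3.3 and SciPy 1.17.1 were used.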

Additional observations from a re-analysis of the deposited data

How the results depend on the processing

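The 161 runs, 1035 member sites, 170 genes with members and the ratio of 3.31 to the number expected from control rank stayed within 1.5 times under gaps under 50 or 200 kb, −log10 q of at least 3 or 5, overlap of 50% of the shorter peak, summits, chromosome X and Ryr2 left out. The last was chosen after seeing the data. In lists of equal length there were 32 runs with 202 sites at 30 genes, 13.4 times the number expected. With peaks under 3 kb apart joined, also chosen after seeing the data, there were 40 runs with 240 sites at 41 genes, 5.52 times. Runs of at least 4 numbered 380 with 1911 sites at 387 genes (2.05 times), and runs of at least 7 numbered 48 with 441 sites at 54 genes (12.8 times). With sites lost from at least 1 TBX5 KO list there were 826 runs, 5298 sites and 949 genes (1.42 times). With the groups exchanged there were 0 runs, 0 sites and 0 genes, and no rank difference could be computed. The TBX5 KO lists are the shorter ones (61173 and 69557 peaks against 99924 and 91520), which leaves fewer sites to meet the exchanged rule. The number expected under that rule is not given here, so these counts are no contrast to the 161 runs. Leaving out 1 library gave 297 to 793 runs, 1853 to 5071 sites, 319 to 958 genes and 1.46 to 2.22 times, the lowest counts without TBX5 KO replicate 1 and the highest without control replicate 2, since fewer libraries must meet the rule.

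The replicate block, taken as each same-numbered pair alone, gave 1813 runs with 12055 sites at 2085 genes for pair 1 (1.15 times) and 912 runs with 5865 sites at 995 genes for pair 2 (1.53 times). The rank difference near runs was −12.1 with the replicate block too (sign permutation p = 0.5, the smallest that 2 pairs allow), with −12.7 and −11.5 in the pairs. It ranged from −15.5 within 50 kb to −5.84 without control replicate 2, and its sign did not change in any alternative that gave a value. In each of them the runs came from calls in the libraries compared, so the sign is a description. Of the counts at named genes and lists under alternatives, 344 stayed within 1.5 times and 196 did not. With joined peaks Bmp10, Gja5, Corin, Pam, Kcnj5 and Myh7 had 0 run sites, while Nav3 had 8 and Tmem163 13. At equal length Bmp10, Gja5, Corin, Pam, Kcnj3 and Kcnj5 had 0, and Tmem163 and Camk1d had 11 and 15. Without read totals, loss of a call and lower depth cannot be told apart at single sites.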
